A study of Mus musculus with 9 samples.

Results

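The lysosomal cathepsins were followed in total RNA of TTP-deficient macrophages with an inducible TTP transgene. The members were the 9 genes Ctsa, Ctsb, Ctsc, Ctsd, Ctsh, Ctsk, Ctsl, Ctss and Ctsz, chosen by gene symbol. All 9 were found among the 25494 genes of the library table and in each of the 3 comparison tables. Tristetraprolin (TTP, gene Zfp36) is an RNA-binding protein that shortens the life of mRNAs with AU-rich elements, and the kinase MK2 holds it back by phosphorylation. In TTP-AA the main target serines of MK2 are replaced by alanines. The comparisons therefore asked how cathepsin RNA differed with wild-type TTP, and with a form that MK2 cannot phosphorylate, shortly after an inflammatory stimulus.

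All 3 groups were mouse bone marrow-derived macrophages without endogenous TTP, grown in M-CSF and immortalized with human c-Myc and hRasG12V. CD11b and F4/80 positive cells were then transduced with a retroviral tet-inducible vector for GFP alone (GFP), wild-type murine TTP fused to GFP (TTP) or the mutant fusion (TTP-AA). Every group received 1 µg/ml doxycycline for 6 h and 1 µg/ml lipopolysaccharide (LPS) for 1 h, so libraries without either agent were not part of the comparison. Each group had 3 libraries, 9 in all, and the labels do not say whether these came from separate transductions. A difference between groups can therefore also be a difference between transduced lines. Zfp36 itself was at a mean scaled value of 1303 in GFP, 1332 in TTP and 2109 in TTP-AA. Since TTP was only 0.03 above GFP on the log2 scale, this gene gives no check of the TTP label, and groups are named here by their labels.

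The library values are not measured counts. They are fitted values of the authors' model, the product of a library factor, a term shared by all libraries of one replicate number and a term for the group. None of the values was 0, and after centring the 9 libraries held 4 independent patterns where free libraries would hold 8. For this reason no scatter between replicates remains, every difference below is a value without a test, and the same replicate pattern recurs in each group by construction. Whether the ranges of groups overlap thus depends on the size of that pattern beside the group difference. It is neither agreement nor disagreement between separate libraries. The summed fitted values ranged from 21482954 to 102613526 per library, with TTP replicate 1 the lowest and TTP-AA replicate 3 the highest. Values were scaled to a common library size, and a log2 difference is the difference of the mean log2(scaled value + 0.5) of 2 groups. The error given with it covers the counting error of the fitted counts only and not the variation between cultures. Differences of at least 0.5 in size were counted, beside the share of the 13027 genes with a mean scaled value of at least 10 that passed the same limit.

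Cathepsins are the proteases of the lysosome. Ctsb, Ctsc, Ctsh, Ctsk, Ctsl, Ctss and Ctsz encode cysteine proteases, Ctsd encodes an aspartic protease, and Ctsa a serine carboxypeptidase that also protects neuraminidase and beta-galactosidase. They are made as inactive precursors, sorted to the lysosome largely through mannose 6-phosphate, and held in check outside it by cystatins and stefins. In macrophages they degrade engulfed material, and cathepsins S and L cut the invariant chain of MHC class II. Many lysosomal genes carry the CLEAR element read by TFEB and its relatives, whereas Ctss is known as an interferon- and PU.1-responsive gene.

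Promoter sequences are shown for the endopeptidase Ctss, for its neighbour Ctsk on chromosome 3, and for Ctsd, since these hold different motifs. The sequences are the 250 bases before the annotated start from RefSeq on GRCm38.p6, in the direction of transcription, at chr3:95526536-95526785 (plus strand) for Ctss, chr3:95498960-95499209 (plus strand) for Ctsk and chr7:142387828-142388077 (minus strand) for Ctsd. The start that RefSeq gives for Ctsd lies inside the gene as GENCODE annotates it, so most of the Ctsd window is within that gene span. Capitals mark matches on either strand to the motifs named after them.
Ctss: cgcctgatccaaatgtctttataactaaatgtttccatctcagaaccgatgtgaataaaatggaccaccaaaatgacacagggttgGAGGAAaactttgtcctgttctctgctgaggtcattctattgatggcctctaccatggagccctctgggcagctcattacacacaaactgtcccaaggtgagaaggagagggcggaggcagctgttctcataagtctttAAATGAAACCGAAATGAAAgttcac
Ctsk: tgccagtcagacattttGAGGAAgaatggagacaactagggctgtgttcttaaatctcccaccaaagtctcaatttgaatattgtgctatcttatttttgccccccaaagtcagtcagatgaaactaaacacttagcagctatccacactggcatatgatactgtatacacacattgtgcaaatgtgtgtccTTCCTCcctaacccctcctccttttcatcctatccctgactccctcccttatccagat
Ctsd: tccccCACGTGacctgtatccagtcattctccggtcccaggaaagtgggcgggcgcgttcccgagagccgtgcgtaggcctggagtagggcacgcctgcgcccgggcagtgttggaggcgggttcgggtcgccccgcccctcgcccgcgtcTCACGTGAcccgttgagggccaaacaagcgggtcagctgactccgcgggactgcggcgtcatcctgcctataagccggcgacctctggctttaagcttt

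Promoters were matched for 7 of the 9 cathepsins (Ctsa, Ctsc, Ctsd, Ctsk, Ctsl, Ctss and Ctsz). The Ctsl window lies wholly within the GENCODE span of the gene, so its matches are upstream of the RefSeq start only. The core of the CLEAR element, TCACGTGA, was found in Ctsd alone, against 0.803% of 27025 promoters of the same length. The E-box CACGTG, which that core contains, was found in Ctsd and Ctsl, against 6.05% of all promoters. A core of interferon regulatory factor sites, AANNGAAA, was present 3 times in overlapping copies in Ctss and 2 times in Ctsl, and 21.6% of all promoters held it at least once. The PU.1 core GAGGAA was found in Ctsc, Ctsk and Ctss, against 23.1% of all promoters. The AP-1 motif TGANTCA was in none of the 7, against 6.87% of all promoters. These matches describe letters in the window and not binding.

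The 3′ untranslated region was searched in a single transcript per gene, that with the longest coding sequence and, among equals, the shortest. Other transcripts were not searched. Those used for Ctsl (1971 bases), Ctsc (2493) and Ctsh (1617) were shorter than the longest of each gene (6168, 3220 and 2743). In the regions searched, the heptamer TATTTAT, which TTP is known to bind as RNA, occurred only in Ctsb. That region was also the longest of the 9 with 3594 bases, whereas the others had 215 (Ctss) to 1798 (Ctsa) bases. Of 15904 genes with such a region, 24.0% held the heptamer, and their median length was 766 bases. The site lies at chr14:63144814-63144838 on the plus strand of GRCm38, with the heptamer in capitals.
Ctsb: acccctttaTATTTATtcatgcagt

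Most cathepsins were at similar levels in the 3 groups, and Ctss, Ctsl and Ctsh stood apart. Against GFP, Ctss was lower with wild-type TTP, and Ctsl and Ctsh were higher with TTP-AA. In TTP against GFP, 1 of 9 cathepsins (Ctss) was past the limit of 0.5, where 5.12% of all genes passed in either direction and 3.64% were lower. In TTP-AA against GFP, 2 of 9 (Ctsl and Ctsh) were past it, where 8.50% of all genes passed and 5.37% were higher. In TTP-AA against TTP, 2 of 9 (Ctss and Ctsh) were past it, where 13.3% of all genes passed and 8.64% were higher. With 9 genes, 1 or 2 past the limit is a small count to set beside these shares. The median log2 difference of the 9 was -0.07 in TTP against GFP, 0.05 in TTP-AA against GFP and 0.17 in TTP-AA against TTP. That of all genes was -0.0016, 0.00088 and -0.0025 in the same order. In bulk RNA, fewer cells of a type and less RNA per cell cannot be told apart. The comparisons with GFP share the same 3 GFP libraries.

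**Figure D1:**
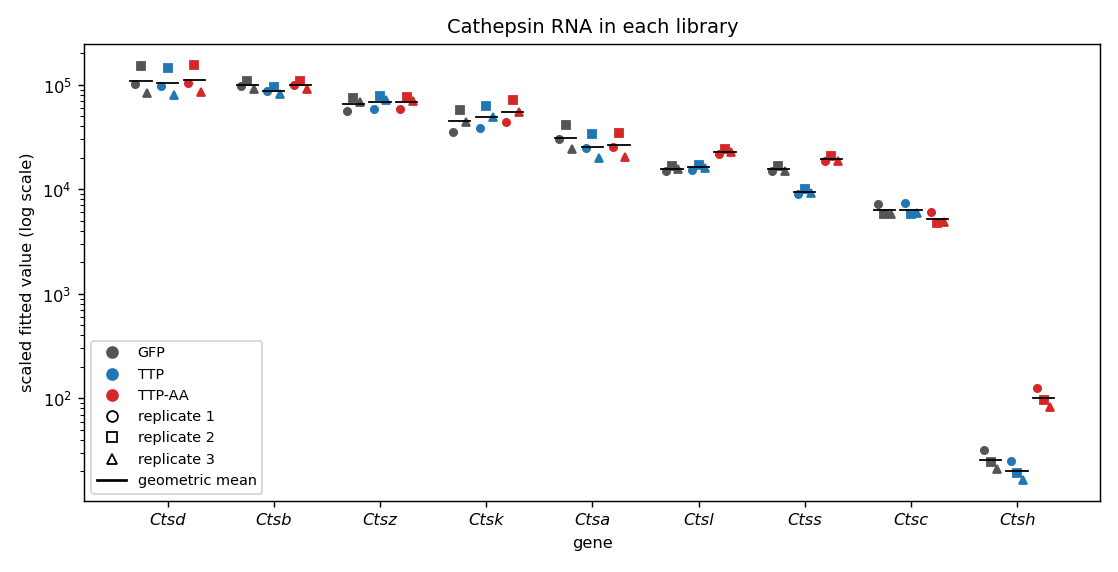
Scaled fitted values (log axis) of the 9 cathepsins in each library, ordered by mean, with GFP in grey, TTP in blue and TTP-AA in red; the marker shape gives the replicate number and the black line the geometric mean of the 3 libraries. Ctss is lowest in the 3 TTP libraries, and Ctsh is at 82.4 to 126 in TTP-AA against 16.5 to 32.1 in the other 6 libraries.

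Ctss encodes cathepsin S, an endopeptidase of antigen-presenting cells that stays active at neutral pH. The gene (ENSMUSG00000038642) lies at chr3:95526786-95556403 on the plus strand. Scaled values were 14834, 16851 and 15075 in GFP replicates 1 to 3, 8985, 10134 and 9145 in TTP, and 18468, 20897 and 18760 in TTP-AA. All 3 fitted TTP values were below those of GFP, and all 3 of TTP-AA were above both. The replicate pattern recurs in each group by construction, so the 3 libraries of a group are not separate evidence. The log2 difference was -0.73 ± 0.012 (counting error) in TTP against GFP, which is a ratio of 0.605. As large a difference in either direction was seen in 2.50% of genes with a mean of at least 10. TTP-AA was 0.31 ± 0.009 above GFP and 1.04 ± 0.011 above TTP, the latter being a ratio of 2.06, and 2.92% of genes differed as much between TTP-AA and TTP. Ctss had no TATTTAT in the 215-base 3′ untranslated region of the transcript searched.

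Genes of chromosome 3 as a whole were lower in TTP, with a median of -0.197 over 646 genes against GFP. That median was -0.0996 in TTP-AA against GFP and 0.0946 in TTP-AA against TTP. With each chromosome centred on its own median, Ctss was at -0.53 in TTP against GFP, 0.41 in TTP-AA against GFP and 0.94 in TTP-AA against TTP, so it remained past the limit in the same 2 comparisons. Whether the chromosome shift had a part in the value of Ctss was not tested.

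Ctsk lies 17423 bases from Ctss with no annotated gene between them, at chr3:95499256-95509362 on the same strand. It encodes cathepsin K, the collagen-degrading protease of osteoclasts. Its scaled values were 35278, 57669 and 44111 in GFP, 38856, 63061 and 48654 in TTP, and 43748, 71235 and 54678 in TTP-AA. The group ranges overlapped because the replicate pattern was wider than the group difference. Within each replicate number GFP was lowest and TTP-AA highest, as the model fixes. The log2 differences were 0.14 in TTP against GFP, 0.31 in TTP-AA against GFP and 0.17 in TTP-AA against TTP, each with a counting error of at most 0.0059. The neighbours thus differed in opposite directions between TTP and GFP. Within a library, the fitted count of Ctss per fitted count of Ctsk was 0.292 to 0.420 in GFP, 0.161 to 0.231 in TTP and 0.293 to 0.422 in TTP-AA. This ratio needs no library scaling, but it holds only the fitted terms of both genes and is no support beyond their log2 differences.

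Of 6 osteoclast markers, 4 had a mean scaled value of at least 10. Acp5, the tartrate-resistant acid phosphatase, had a mean of 2.98, and Calcr, the calcitonin receptor, was not listed. Dcstamp was at 193, Mmp9 at 175, Ocstamp at 26.1 and Atp6v0d2 at 351. The summed level of the 5 listed markers was 658 to 719 in GFP, 868 to 955 in TTP and 632 to 698 in TTP-AA. Most of the difference between GFP and TTP came from Atp6v0d2, a proton-pump subunit, at means of 295 and 485.5. Of the 4 markers, 3 were above GFP in TTP and 1 (Mmp9, 164.3 and 157.8) was below. In TTP-AA, where Ctsk was highest, 3 of the 4 were below GFP and below TTP, and 1 (Mmp9) was above both. The part of these genes in the value of Ctsk was not tested.

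Ctsl encodes cathepsin L, a broad endopeptidase (ENSMUSG00000021477, chr13:64359337-64370890, minus strand). Scaled values were 14872, 16740 and 15514 in GFP, 15382, 17189 and 16069 in TTP, and 21598, 24214 and 22520 in TTP-AA. GFP and TTP overlapped, and all 3 fitted TTP-AA values lay above them. Here too the replicate pattern recurs, so the 3 values are not separate evidence. TTP-AA was 0.54 ± 0.0087 (log2, counting error) above GFP, a ratio of 1.45, and 7.28% of all genes differed as much. Against TTP the difference was 0.49 ± 0.0090, just inside the limit of 0.5, and 13.8% of genes differed as much. TTP differed from GFP by 0.05. Among the 9 cathepsins, Ctsl was the member nearest to the limit on both sides. Per fitted count of Ctsb in the same library, Ctsl was at 0.152 to 0.170 in GFP, 0.177 to 0.199 in TTP and 0.219 to 0.245 in TTP-AA. Its exons overlap those of the antisense gene Gm47123 over 1742 bases and the pseudogene Gm49230 over 395 bases, and the sources do not say whether counting used strand, so a share of its counts may belong to these.

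Ctsh encodes cathepsin H, an aminopeptidase (ENSMUSG00000032359, chr9:90054152-90076089, plus strand), and was the only one of the 9 at a low level. Its scaled values were 32.1, 24.7 and 21.1 in GFP, 25.2, 19.2 and 16.5 in TTP, and 126, 96.2 and 82.4 in TTP-AA. The lowest fitted TTP-AA value was above the highest of the other 6 libraries, where again the replicate pattern recurs by construction. TTP-AA was 1.94 ± 0.19 (log2, counting error) above GFP, a ratio of 3.85, and 2.29 ± 0.22 above TTP, a ratio of 4.89. As large a difference was seen in 0.184% of all genes against GFP and in 0.353% against TTP. The TTP value was at -0.35 ± 0.26 against GFP, little more than its counting error. Ctsh was also the cathepsin whose fitted values departed most from the authors' mean of normalized counts. That deposited mean was 59.6, whereas the fitted values averaged 49.2, and only 0.750% of genes had as low a ratio of the 2. The spread of the measured counts behind this gene is not given by the fitted values. The model may also draw differences of low genes towards 0, which the sources used here do not state.

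By the distance between their pairs of log2 differences from GFP, the genes most like Ctsh among 6389 with a mean scaled value of at least 1000 were Uchl1, Cd52 and Cd36. Uchl1, a neuronal ubiquitin hydrolase, was at -0.997 in TTP and 1.56 in TTP-AA against GFP. Cd52, a short glycoprotein of leukocytes, was at -0.88 and 1.24. Cd36, a scavenger receptor, was at 0.24 and 1.17. Their distances were 0.755, 0.885 and 0.970. All were at higher levels than Ctsh, but none was as far above GFP in TTP-AA on the log2 scale.

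**Figure D2:**
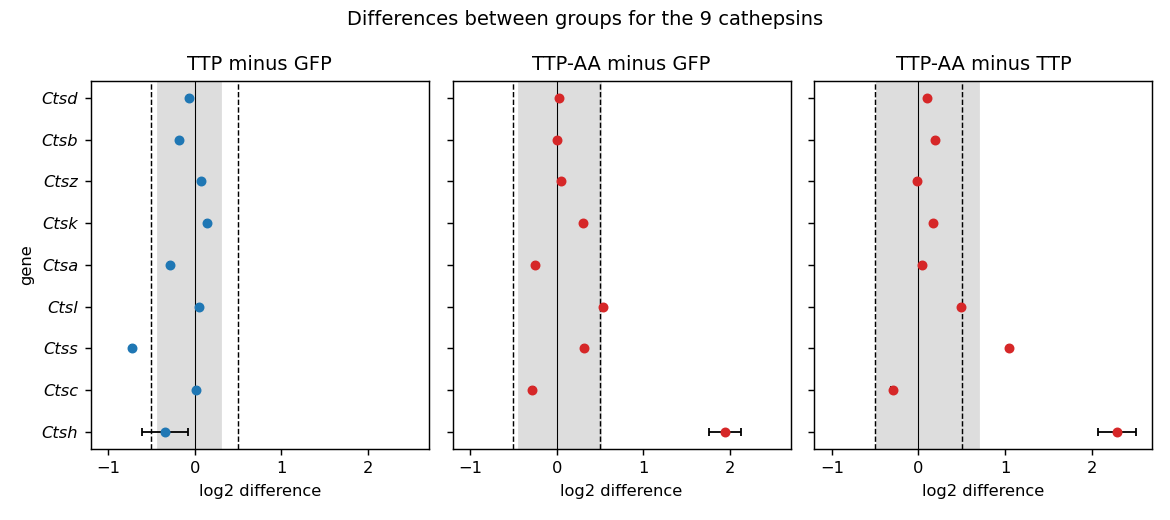
Log2 differences between groups for the 9 cathepsins, 1 panel per comparison; bars give the counting error only, dashed lines the limit of 0.5 and grey bands the range from the 5th to the 95th percentile of 13027 genes. Ctss is left of the band in TTP minus GFP, Ctsh and Ctsl are right of it in TTP-AA minus GFP, and Ctsh and Ctss are right of it in TTP-AA minus TTP.

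The other cysteine cathepsins differed less. Ctsb, at chr14:63122462-63145923 (plus strand), encodes cathepsin B, which acts as both an endopeptidase and a dipeptide-cleaving exopeptidase. It was at 98020, 109298 and 91301 in GFP, 86731, 96016 and 80901 in TTP, and 98833, 109775 and 92020 in TTP-AA. GFP and TTP-AA were nearly level. TTP was lower within each replicate number, as the model fixes, and the ranges overlapped because the replicate pattern was wider than the group difference. The log2 differences were -0.18 in TTP against GFP and 0.19 in TTP-AA against TTP, where 34.5% and 50.0% of genes differed as much. In TTP-AA against GFP the value was 0.01, and its sign changed with the scaling. Ctsb, the only cathepsin with the heptamer TATTTAT in the transcript searched, was within the limit in each comparison. Whether the heptamer had a part in its values was not tested. Exons of Fdft1 overlap those of Ctsb on the opposite strand over 774 bases.

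Ctsc, which encodes the dipeptidyl peptidase that activates granule serine proteases, lies at chr7:88278085-88310888 (plus strand). It was at 7300, 5806 and 5841 in GFP, 7411, 5852 and 5938 in TTP, and 6029, 4777 and 4822 in TTP-AA. Unlike the other abundant cysteine cathepsins, it was lower in TTP-AA than in both other groups. The differences were -0.28 ± 0.016 against GFP and -0.30 ± 0.016 against TTP, and TTP was 0.02 above GFP. Ctsz, at chr2:174427493-174439039 (minus strand), encodes a carboxypeptidase, cathepsin Z. Its scaled values were 55989, 74170 and 67844 in GFP, 59057, 77673 and 71664 in TTP, and 58125, 76700 and 70403 in TTP-AA. The group ranges overlapped, since the replicate pattern was wider than the group differences. These were 0.07 in TTP against GFP, 0.05 in TTP-AA against GFP and -0.02 in TTP-AA against TTP. The sign of the last changed with upper quartile scaling and when chromosomes were centred.

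Ctsd, at chr7:142375911-142388038 (minus strand), encodes the aspartic endopeptidase cathepsin D and had the highest mean scaled value of the 9 in each group, although Ctsb was above it in replicate 3 of every group. Its values were 101284, 152711 and 83407 in GFP, 96766, 144851 and 79800 in TTP, and 103489, 155426 and 85188 in TTP-AA. In each group replicate 2 was high and replicate 3 low, and this pattern, wider than the group differences, made the group ranges overlap. The log2 differences were -0.07 in TTP against GFP, 0.03 in TTP-AA against GFP and 0.10 in TTP-AA against TTP, and the sign of the second changed when chromosomes were centred. Ctsd shares 808 exon bases with Gm49369 on the same strand.

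Ctsa, at chr2:164832873-164841032 (plus strand), was at 30426, 41397 and 24254 in GFP, 24991, 33758 and 19950 in TTP, and 25634, 34741 and 20426 in TTP-AA. The ranges of the 3 groups overlapped because the replicate pattern was wider than the group difference. Within each replicate number GFP was highest, as the model fixes. The differences from GFP were -0.29 ± 0.0075 in TTP and -0.25 ± 0.0068 in TTP-AA, and TTP-AA was 0.04 above TTP. Exons of Neurl2 and Pltp overlap Ctsa on the opposite strand over 324 and 495 bases.

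For 6 of the 9 cathepsins the replicate number carried a wider log2 range than the group. Ctsd had a range of 0.867 over the replicate numbers and 0.0976 over the groups. Ctsa had 0.765 and 0.287, and Ctsk had 0.704 and 0.308. Ctsz, Ctsb and Ctsc had ranges of 0.400, 0.254 and 0.336 over the replicate numbers and of 0.0742, 0.189 and 0.297 over the groups. Only Ctsh, Ctsl and Ctss varied more between groups, with 2.29, 0.536 and 1.04 against 0.597, 0.165 and 0.179. Over all genes with a mean of at least 10, the group had the wider range in 39.8%, and the median range was 0.252 over groups and 0.323 over replicate numbers. The study's model held a term for the library date, which is the only description given of what the replicate numbers share.

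**Figure D3:**
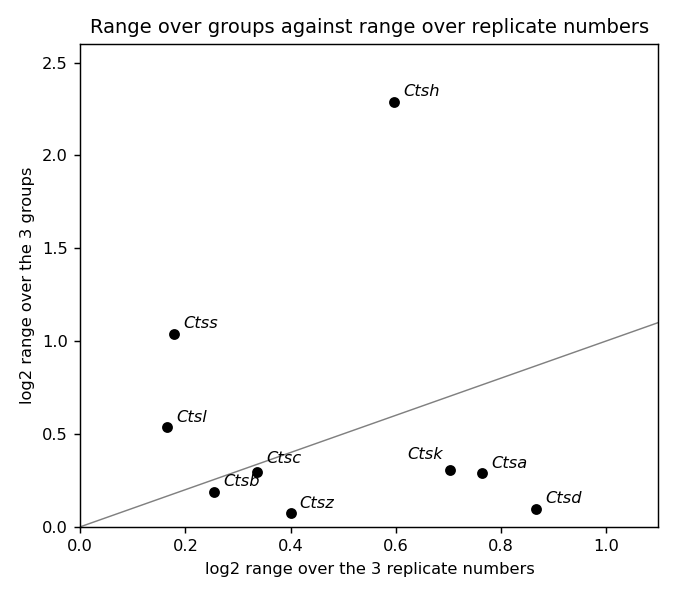
Log2 range of each cathepsin over the 3 groups (y axis) against its range over the 3 replicate numbers (x axis), with a grey line where both are equal. Ctsh, Ctss and Ctsl lie above the line and the other 6 below it, Ctsd farthest to the right at 0.867.

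Levels of different cathepsins were compared per kilobase of merged exons. In GFP the order was Ctsd (46300 scaled counts per kilobase, 35480 to 64960 over the libraries), Ctsz (45490, 38850 to 51470) and Ctsk (29610, 23330 to 38140), followed by Ctsb (16400, 15090 to 18060) and Ctss (11460, 10920 to 12410). Then came Ctsa (6630, 5144 to 8780), Ctsl (2418, 2292 to 2580), Ctsc (1081, 999.7 to 1257) and Ctsh (5.69, 4.69 to 7.14). Ctsd and Ctsz overlapped, as did Ctsk and Ctsd, and from Ctsk downwards no neighbours in the order overlapped. Ctsd and Ctsz ranked 23 and 25 among 25165 genes with a length, and Ctsh ranked 13275. In TTP, Ctss was at 6928 and Ctsa at 5435 per kilobase, and their libraries overlapped, whereas in TTP-AA Ctss (14250) overlapped Ctsb (16520).

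The level of Ctsl depended on the length used. Its merged exons cover 6489 bases, but the transcript with the longest coding sequence has 1971, and with that length Ctsl was at 7960 per kilobase in GFP, beside Ctsa at 8574. With it Ctsl was above Ctss in TTP (8217 against 6943) and below it in TTP-AA (11540 against 14280). Together the 9 cathepsins held 0.967 to 1.27% of the summed fitted counts in GFP, 0.915 to 1.21% in TTP and 1.02 to 1.32% in TTP-AA. Ctsd and Ctsb made up 48.0 to 55.7% of the fitted counts of the 9 over the libraries.

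**Figure D4:**
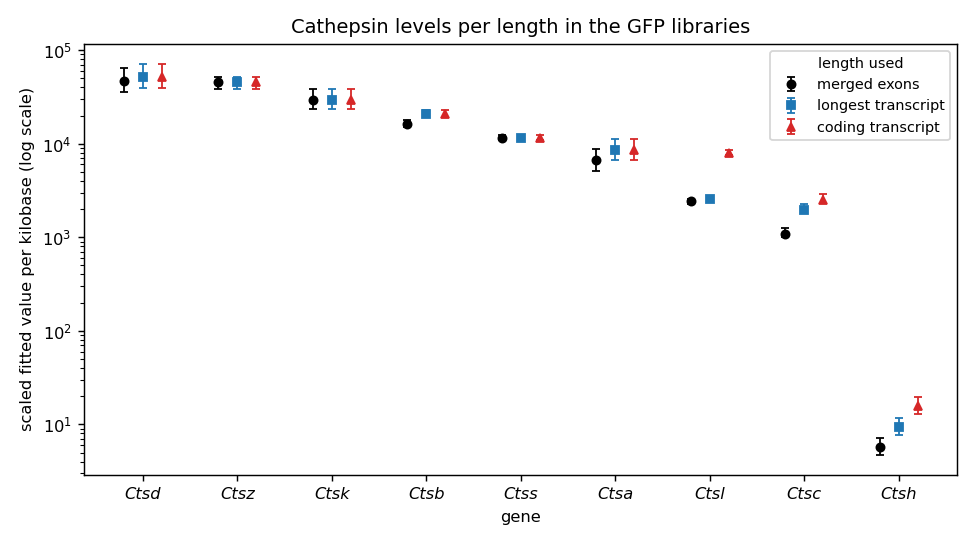
Scaled fitted value per kilobase (log axis) of each cathepsin in the GFP libraries with 3 definitions of length; markers are means and bars the lowest and highest library. Ctsl is at 2418 with merged exons and 7960 with the coding transcript, and the order of the 9 in GFP is the same with each length.

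Of 14 further cathepsin genes, 7 were listed and 2 had a mean scaled value of at least 10, neither past the limit. Ctso, a cysteine cathepsin also on chromosome 3, was at -0.45 in TTP against GFP, -0.21 in TTP-AA against GFP and 0.24 in TTP-AA against TTP. Ctsf was at -0.21, -0.18 and 0.03. The neutrophil protease Ctsg had a mean of 5.39 and the gastric aspartic protease Ctse one of 3.15.

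The inhibitors of cathepsins differed among themselves. Cstb, stefin B of the cytosol, was at mean scaled values of 19890 in GFP, 14710 in TTP and 21620 in TTP-AA. Its log2 differences were -0.44 in TTP against GFP, 0.12 in TTP-AA against GFP and 0.56 in TTP-AA against TTP, the order in which Ctss also lay. Cst7, cystatin F, which controls Ctsc activation, was at -0.01, -0.49 and -0.48. The secreted cystatin C gene Cst3 was at -0.02, -0.08 and -0.06. Of the 4 of 8 inhibitors with a mean of at least 10, none was past the limit in TTP against GFP, 1 was higher in TTP-AA against GFP and 2 (Cstb and Stfa3) were higher in TTP-AA against TTP. Of all genes, 5.12% passed in the first comparison, and 5.37% and 8.64% were higher in the others.

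Genes that sort or activate cathepsins lay on both sides of 0, with medians of 0.01, 0.10 and 0.12 over the 10 genes in the same 3 comparisons. Of the 10, 0 were past the limit in TTP against GFP, 1 in TTP-AA against GFP and 2 in TTP-AA against TTP. Of all genes, 5.12%, 8.50% and 13.3% passed in the same order. Sort1, a sorting receptor, was past the limit downwards in TTP-AA, at -0.95 against GFP and -0.84 against TTP. Psap, the precursor of saposins that also carries procathepsin D, was at -0.19, 0.31 and 0.50, the last past the limit. Lgmn, the asparaginyl protease that cleaves cathepsins B, L and H, was at 0.28, -0.18 and -0.46. Among 6 transcription regulators of lysosomal genes, Tfec was at 0.56 in TTP-AA against GFP and 0.22 in TTP against GFP, where it was the highest of the list, and Tfe3 was the lowest at -0.13. Spi1, which encodes PU.1, was at 0.41 in TTP-AA against TTP, and Mitf at -0.37 in that comparison and -0.18 in TTP-AA against GFP. The list had medians of -0.06, 0.13 and 0.22.

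Other lysosomal hydrolases had medians of -0.09, -0.02 and 0.09 over 34 of 35 genes. In TTP against GFP only Ids, iduronate sulfatase, was past the limit, at -0.72, where 5.12% of all genes passed. None was past it in TTP-AA against GFP, where 8.50% of all genes passed, with Prcp at 0.38 and Sgsh at -0.44. In TTP-AA against TTP 4 were higher and none lower, where 8.64% of all genes were higher. Ids was at 0.95 there and Gaa the lowest at -0.38. Like Ctss, Ids was therefore lowest in TTP and past the limit in the same 2 comparisons.

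Lysosomal membrane proteins and their partners were below GFP in TTP in 16 of 16 genes, with a median of -0.16, from -0.01 in Clcn7 to -0.30 in Ctns. The median of all genes in this comparison was -0.0016. In TTP-AA against TTP 11 of 16 were higher, 2 of them past the limit, where 8.64% of all genes were higher by as much. Npc2, the cholesterol carrier, was at 0.59 there and Tmem175 at -0.21. Against GFP, Npc2 was at 0.40 and Mcoln1 at -0.38 in TTP-AA. Subunits of the proton pump were below GFP in TTP in 14 of 16 genes, with a median of -0.10. The exception past the limit was Atp6v0d2 at 0.72, which was at -0.86 in TTP-AA against TTP. The other extremes of that list were Atp6v1a at -0.23 in TTP against GFP, Atp6v1c1 at -0.36 in TTP-AA against GFP, and Atp6v0e at 0.21 against GFP and 0.41 against TTP in TTP-AA.

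Genes of MHC class II presentation, in which Ctss and Ctsl act, were at low to moderate levels. Of 10 genes, 6 had a mean of at least 10, and the 4 others were Ciita (4.94), H2-Ab1 (7.11), H2-Ob (5.56) and H2-Aa (0.0768). In TTP, 6 of 6 lay below GFP (median -0.25), and in TTP-AA 6 of 6 lay above TTP (median 0.47). The medians of all genes in these comparisons were -0.0016 and -0.0025. Cd74, the invariant chain, was at 1512 in GFP, 1298 in TTP and 2104 in TTP-AA, or -0.22, 0.48 and 0.70 on the log2 scale. H2-DMb1 was at -1.08 in TTP and -0.70 in TTP-AA against GFP. Ifi30, a lysosomal thiol reductase that acts with cathepsin S, was at -0.01, 0.30 and 0.31.

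**Figure D5:**
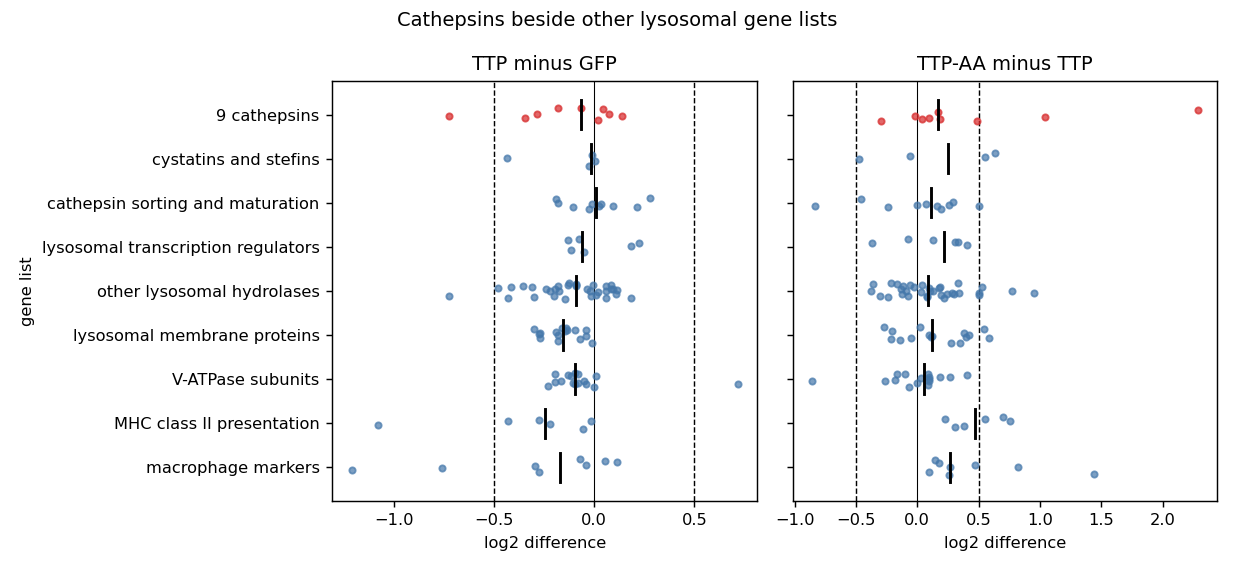
Log2 differences of the 9 cathepsins (red) and of the genes with a mean scaled value of at least 10 in 8 other lists (blue); black bars are list medians and dashed lines the limit of 0.5. In TTP minus GFP all 16 lysosomal membrane proteins lie left of 0, and in TTP-AA minus TTP the medians of all 9 sets lie right of it.

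Of the macrophage markers, 8 of 8 had a mean of at least 10, the lowest being Mertk at 18.5. Against GFP, 6 of 8 were lower in TTP (median -0.17), and against TTP, 8 of 8 were higher in TTP-AA (median 0.26), as Ctss was. Over all genes these medians were -0.0016 and -0.0025. Emr1, which encodes F4/80, was at -0.76 in TTP against GFP, 0.68 in TTP-AA against GFP and 1.44 in TTP-AA against TTP. Fcgr1, an Fc receptor on chromosome 3, was at -1.21, -0.39 and 0.82, and Cd14 at 0.11, 0.29 and 0.18. The summed level of the list was 577900 to 798600 in GFP, 481800 to 657900 in TTP and 662100 to 909100 in TTP-AA, most of it from lysozyme (Lyz2). F4/80 was one of the proteins on which the parental cells had been selected. The part of these markers in the values of the cathepsins was not tested.

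Beside the osteoclast list, markers of other cell types differed in level, from near 0 to a mean of 235 for Flt3. Fibroblast markers summed to at most 1.28 and lymphocyte markers to at most 1.69 in any library. Of 5 neutrophil markers only S100a8 was above a mean of 10, at 138, 139 and 235 in GFP, TTP and TTP-AA, or 0.76 higher in TTP-AA than in GFP on the log2 scale, and Mpo and Elane were each under 0.5. Among dendritic cell markers Flt3 was at 249, 240 and 213, Zbtb46 at 38.8, 37.5 and 18.1 and Itgax at 12.3, 20.7 and 15.2 in the same order.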

How the data were processed

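Total RNA depleted of ribosomal RNA was sequenced in 9 libraries, 3 per group. Per the labels and the study's methods, the authors aligned reads with TopHat to GRCm38, and HTSeq is named among the tools. The authors then fitted DESeq2 1.6.3 with terms for library date and condition. The deposited library values (unit signal) are fitted means of that model, and the comparison tables hold a mean signal over all libraries. These tables also hold the authors' fold changes, standard errors, test statistics and p-values, which were not used. The limma fit planned for measured values could not be made, since no residual scatter remains.

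Values were divided by median-of-ratios library factors (0.612 to 2.83, from genes with a mean of at least 10) and compared as log2(value + 0.5) in Python 3.11.15 with numpy 2.4.6 and pandas 2.3.3. The counting error is the Poisson error of the fitted counts. The computation was tested on simulated data. Of 25504 rows, 10 repeated identifiers were dropped. Positions, lengths and 3′ untranslated regions came from GENCODE mouse release M21 on GRCm38, and promoters from RefSeq. Genes outside the 9 were named by rule: per list and comparison, the highest and lowest member with a mean of at least 100, the 3 genes nearest to the cathepsin with the widest range over groups, and Zfp36. Ctsg, Ctse, Cst3, Stfa3, Lyz2, the MHC class II genes Ciita, H2-Ab1, H2-Ob and H2-Aa, and marker genes under that mean were named after their values were seen, and 1 gene that the rule names is not reported here. The members and lists were chosen with earlier results of these data known.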

Additional observations from a re-analysis of the deposited data

How the results depend on the processing

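Of the 27 differences (9 cathepsins in 3 comparisons), 25 moved by less than the spread over replicate numbers under all 7 alternatives, namely other scalings (column total, upper quartile, other filters), no pseudocount, a pseudocount of 5, and centring on the chromosome median. The exceptions were Ctss, at -0.53 in TTP against GFP and 0.41 in TTP-AA against GFP after chromosome centring. The spread over replicate numbers, as large as 0.442 in Ctsd, cancels in a difference between groups. The other scalings moved the median difference of genes with a mean of at least 10 by at most 0.024. Moving by less than that spread was therefore nearly certain beforehand and is a weak check. The sign changed for 3 small differences that are all among the 25, Ctsb and Ctsd in TTP-AA against GFP and Ctsz in TTP-AA against TTP. With a limit of 0.25 in place of 0.5, 3 cathepsins passed in TTP against GFP, 5 in TTP-AA against GFP and 4 in TTP-AA against TTP. Near that limit many genes pass, and the share of all genes past 0.25 was not computed. A difference of 0.287 or more was seen in 15.9% of genes in TTP against GFP, so the share past 0.25 is at least that. For 0.249 the share was 30.3% in TTP-AA against GFP, which the share past 0.25 cannot exceed. For 0.297 it was 31.1% in TTP-AA against TTP, again a lower bound. With a limit of 1, 0 passed in TTP against GFP, 1 in TTP-AA against GFP and 2 in TTP-AA against TTP. The share past 1 was not computed either. In the last comparison, 2.92% of genes differed by 1.04 or more, a lower bound. In TTP-AA against GFP, 0.184% differed by 1.94 or more, also a lower bound. The counts at these limits therefore have no share at the same limit beside them. Ctsl passed the limit of 0.5 in TTP-AA against TTP under upper quartile scaling and under scaling on genes with a mean of at least 100, at 0.51 in both. Levels per kilobase were recomputed with other lengths in GFP. With the longest transcript they were 8574 for Ctsa, 20930 for Ctsb, 1950 for Ctsc and 9.32 for Ctsh. With the coding transcript, an alternative chosen after seeing the data, they were 8574, 20930, 2519 and 15.8, and 7960 for Ctsl. No paired analysis was possible because fitted means hold no scatter between replicates, and for the same reason leaving out libraries and the fit without a block were not run. The depth behind Ctsh, with fitted counts of 15.4 to 33.2 in GFP and TTP libraries, limits its precision.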
